A study of Homo sapiens with 6 samples.

Results

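The vitamin D receptor VDR, its heterodimer partners RXRA and RXRB, the p160 coactivators NCOA1, NCOA2 and NCOA3, the Mediator subunit MED1 and the corepressor NCOR1 were read on single-color Agilent arrays of SKOV3 cells. The list holds 8 of the 43260 genes that a probe matched, and every probe whose sequence matched a sense transcript of a listed gene exactly was taken. That gave 23 probes out of the 125601 that are not controls. SKOV3 is a long established cell line from a human ovarian carcinoma, spelled SKOV-1, SKOV-3 and SKOV-13 in the labels. Total RNA of cells given 1α,25(OH)2D3 at 100 nmol/L for 72 h was compared with RNA of cells given the same concentration of ethanol as vehicle for 72 h, with 3 arrays under each label. 1α,25(OH)2D3, or calcitriol, is the form of vitamin D that acts as a hormone. Nothing in the sources used here says that the 3 arrays of a label came from separate cultures, so the p-values measure only the spread between these arrays, which may be technical.

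VDR is a nuclear receptor that binds 1α,25(OH)2D3 and, paired with an RXR, sits on vitamin D response elements in DNA. Without ligand the pair can hold corepressor complexes such as the one built on NCOR1, which recruits histone deacetylase. Ligand turns the receptor toward coactivators, the p160 proteins that bring in histone acetyltransferases and MED1, which links the receptor to Mediator and RNA polymerase II. CYP24A1, which breaks down 1α,25(OH)2D3, is the best known gene switched on by this machinery. The question asked here was whether the transcripts of the machinery itself differed between the labels.

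The index of receptor activity went against the labels on 4 of the 6 arrays. The CYP24A1 probe A_23_P28815, in the last exon (exon 12, 3′ UTR), read 2.23, 13.84 and 3.30 on the log2 scale in replicates 1, 2 and 3 of the 1α,25(OH)2D3 label. It read 14.18, 4.75 and 14.34 in replicates 1, 2 and 3 of the vehicle label. It was thus high on 1α,25(OH)2D3 replicate 2 and vehicle replicates 1 and 3, and not well above background on the other 3 arrays. Each direction below is therefore a direction between labels. Another CYP24A1 probe, A_33_P3369401 in coding exon 10, was well above background on vehicle replicate 2 as well. It read 8.24 there, against 3.88 and 4.46 on 1α,25(OH)2D3 replicates 1 and 3. Without the arrays that went against their labels 1 array of each label is left and no test can be made, so each array was instead left out in turn.

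No member transcript passed the test between the labels. Values are the deposited log2 values, and differences are the 1α,25(OH)2D3 label minus the vehicle label on that scale. 17 of the 23 were above background by the scanner's flag on all 6 arrays and were tested, with at least 1 probe for each of the 8 genes. With a fold change above 2 and an unadjusted limma p under 0.05, 0 of the 17 were called, against 472 of all 63337 tested probes (0.745%), 308 higher and 164 lower. At an unadjusted p under 0.05 the member count was also 0, against 6.77% of all tested probes. At an adjusted p under 0.05 it was 0, against 0.0% of all tested probes, and the smallest adjusted p on the arrays was 0.701. The 95% interval of the difference lay within a 2-fold change in both directions for 16 of the 17 probes. A p that misses the threshold does not show equal levels, and the half-width of the intervals, 0.34 to 0.64 on the log2 scale, is the precision that 3 arrays per label gave. The coding CYP24A1 probe A_33_P3369401 did not pass either, with a difference of -5.22 (95% interval -12.34 to 1.89, limma, adjusted p = 0.703). CYP24A1 went against the labels, so the comparison is one between labels and the effect of the hormone was not tested.

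The probes differ in what part of a gene they read, which decides what a value stands for. By position in the reference transcript of each gene, 5 probes lay wholly in coding sequence, 9 in untranslated exons, 8 held intron bases and 1 lay outside. Of the 23, 22 matched the genome at exactly 1 place, the other spans an exon junction, and 0 matched another gene. Only exact matches were counted, and near matches elsewhere were not sought. The following probes are shown because they let coding and intronic RNA of the same gene be read side by side, with coding bases in capitals and intron bases in lower case, 5′ to 3′ along the transcript.
NCOA1 A_23_P39602: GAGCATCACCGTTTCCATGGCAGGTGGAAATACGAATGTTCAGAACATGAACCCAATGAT
NCOA1 OEV5_27818: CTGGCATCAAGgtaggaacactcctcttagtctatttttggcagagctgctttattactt
MED1 A_33_P3210423: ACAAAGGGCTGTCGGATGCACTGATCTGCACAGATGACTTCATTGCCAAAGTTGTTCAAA
MED1 OEV5_40005: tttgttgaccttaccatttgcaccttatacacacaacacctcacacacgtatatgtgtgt
NCOR1 A_24_P204214: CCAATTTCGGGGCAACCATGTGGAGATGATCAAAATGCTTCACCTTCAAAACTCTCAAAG
NCOR1 A_23_P141651: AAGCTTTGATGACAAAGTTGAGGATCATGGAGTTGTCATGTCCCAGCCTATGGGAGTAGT
NCOR1 OEV5_30526: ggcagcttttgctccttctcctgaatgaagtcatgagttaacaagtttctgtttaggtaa
On GRCh38 the NCOA1 probes lie on the plus strand at chr2:24758036-24758095 (exon 21 of 23) and chr2:24658756-24658815. The latter starts with the last 11 bases of exon 5 and runs on through 49 bases of intron 5, so it reads RNA that holds part of that intron. The MED1 probes lie on the minus strand at chr17:39415027-39415086 (exon 16 of 17) and chr17:39427557-39427616 (intron 10). The NCOR1 probes, also on the minus strand, lie at chr17:16165063-16165122 (exon 5 of 46), chr17:16039510-16039569 (exon 44) and chr17:16049040-16049099 (intron 40).

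VDR, the hormone's receptor, has a single probe, A_23_P162589, in the 3′ UTR (exon 10 of 10, chr12:47841719-47841778, minus strand, GRCh38). It read 7.43, 7.24 and 7.24 under the 1α,25(OH)2D3 label and 7.03, 7.26 and 6.91 under the vehicle label. The highest value was under the 1α,25(OH)2D3 label and the lowest under the vehicle label, yet vehicle replicate 2 lay above 1α,25(OH)2D3 replicates 2 and 3, so the labels overlap. The label means were 7.30 ± 0.11 and 7.07 ± 0.18 (SD, n = 3 each). Their difference was 0.23 (SE 0.163, 95% interval -0.15 to 0.61, limma, adjusted p = 0.721), a 1.18-fold higher mean that lay within the spread between arrays. Each array reads RNA pooled from many cells, so fewer expressing cells and less RNA per cell cannot be told apart.

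Beside CYP24A1, VDR read 6.91 to 7.236 on the 3 arrays where A_23_P28815 was high and 7.239 to 7.43 on the 3 where it was low. This is a split by a measured value, not by a label, and is given as ranges only. The ranges just fail to overlap, and VDR is the only member probe of the 17 for which they do, while 6.17% of all tested probes do not overlap on the same split. When the scanner signals were scaled to the 75th percentile of each array, or corrected with normexp, the VDR ranges overlapped. For the 7 other genes the ranges on the brightest probe overlapped throughout. NCOA3, for instance, read 9.95 to 10.97 where A_23_P28815 was high and 10.23 to 11.11 where it was low, and NCOR1 read 9.83 to 10.29 and 9.86 to 10.08.

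The RXR genes encode the obligate partners of VDR. RXRA was read by A_23_P423197, in the 3′ UTR (exon 10 of 10, chr9:134439926-134439985, plus strand). It gave 8.54, 8.38 and 8.29 under the 1α,25(OH)2D3 label and 8.30, 8.48 and 7.77 under the vehicle label. A single array, vehicle replicate 3, was lower than the other 5, whose values overlap between labels. The difference was 0.22 (SE 0.212, 95% interval -0.28 to 0.71, limma, adjusted p = 0.786), and without vehicle replicate 3 it was 0.01. The other RXRA probe, OEV5_49278, matches only a retained-intron transcript that starts ahead of the reference transcript. It read 2.02 to 2.11 and was well above background on none of the arrays.

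RXRB was read by A_23_P59179, in the 3′ UTR (exon 10 of 10, chr6:33194409-33194468, minus strand). It gave 9.89, 10.01 and 10.00 under the 1α,25(OH)2D3 label and 10.21, 10.11 and 9.55 under the vehicle label. The vehicle arrays held both the highest and the lowest value, with replicate 3 again the lowest. The difference was 0.01 (SE 0.203, 95% interval -0.46 to 0.49, limma, adjusted p = 0.987), and without vehicle replicate 3 it was -0.19.

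**Figure D1:**
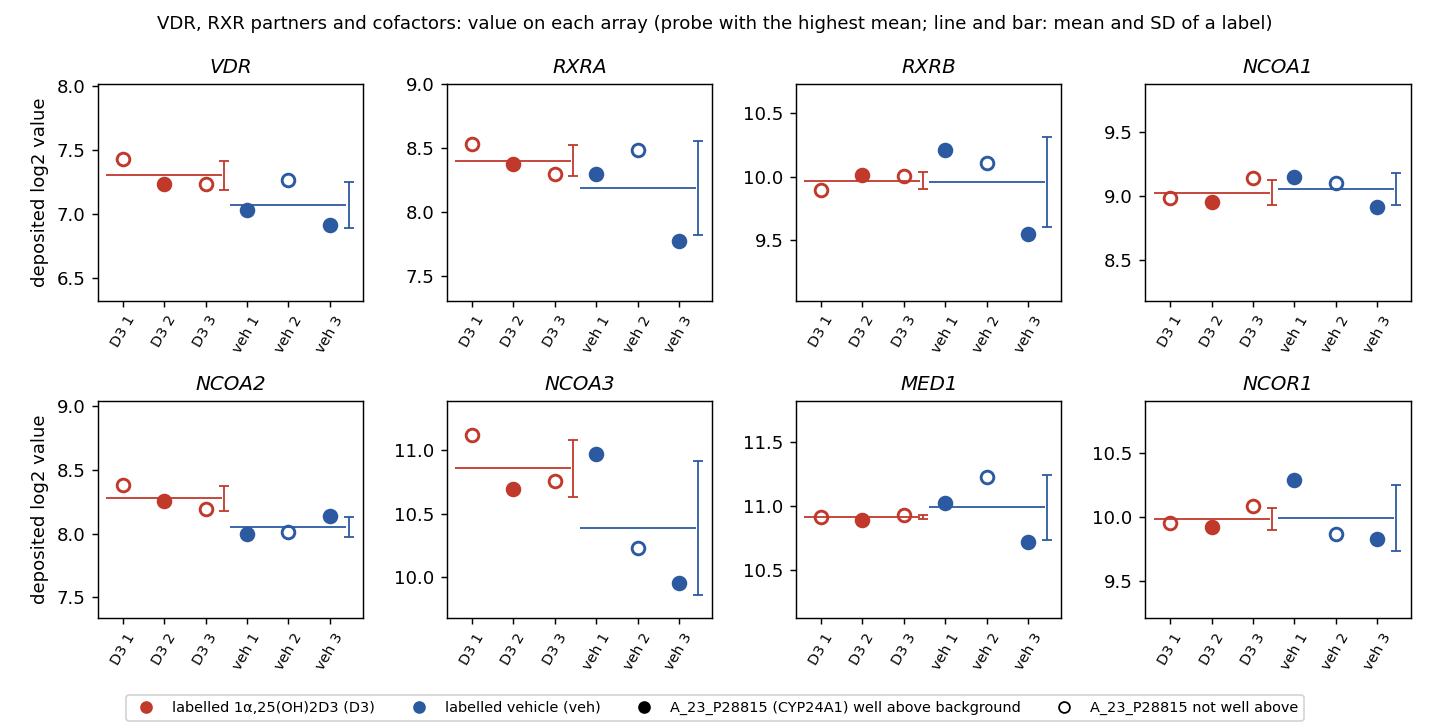
Deposited log2 value (y axis, 1 panel per gene, each spanning the same log2 height) of the brightest probe of each gene on the 6 arrays (x axis), with the mean of each label as a line and its SD as a bar. Red marks the 1α,25(OH)2D3 label, blue the vehicle label, and filled points the arrays where A_23_P28815 was well above background. Vehicle replicate 3 is the lowest point for 7 of the 8 genes, and NCOA2 is the only gene whose labels do not overlap.

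NCOA1, the founding p160 coactivator, was read in coding sequence by A_23_P39602, which gave 8.99, 8.95 and 9.14 under the 1α,25(OH)2D3 label and 9.15, 9.10 and 8.91 under the vehicle label. The labels interleave, with a difference of -0.03 (SE 0.152, 95% interval -0.38 to 0.33, limma, adjusted p = 0.969). The 5′ UTR probe across the junction of exons 2 and 3, OEV5_28006, read 7.52, 7.55 and 7.37 against 7.23, 7.55 and 7.34, a difference of 0.10. The 5′ UTR probe in exon 2, OEV5_45631, read 8.49, 8.41 and 8.63 against 8.22, 8.39 and 8.49, a difference of 0.14. The labels overlap on both, and these probes were lowest on vehicle replicate 1, where the coding probe was highest. The probe that runs from exon 5 into intron 5, shown above, read 7.38, 7.19 and 7.26 against 7.36, 7.24 and 7.24, and its range over the 6 arrays, 0.19, was the smallest of the 17. That probe was well above background on every array, and whether the RNA it read held the exon 5 boundary was not tested. Of the remaining NCOA1 probes, A_33_P3270009, at the end of the 3′ UTR, was well above background on 1α,25(OH)2D3 replicate 3 alone (4.88) and OEV5_42019, in intron 22, on no array.

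NCOA2, a p160 coactivator too, was the only member with a probe whose labels do not overlap. Its 3′ UTR probe A_23_P428999 (exon 23 of 23) read 8.38, 8.26 and 8.19 under the 1α,25(OH)2D3 label and 7.9996, 8.01 and 8.14 under the vehicle label. All 3 arrays labelled 1α,25(OH)2D3 lay above all 3 labelled vehicle, by a gap smaller than the spread within either label. The means were 8.28 ± 0.097 and 8.05 ± 0.078 (SD, n = 3 each), a difference of 0.23 (SE 0.146, 95% interval -0.11 to 0.57, limma, adjusted p = 0.713). That is 1 of 17 member probes without overlap, against 12.2% of all tested probes. The coding probe of the same gene, A_33_P3270019 (exon 21), read 8.19, 8.16 and 8.06 against 8.15, 7.99 and 8.004. There the labels overlap and the difference was 0.09 (95% interval -0.24 to 0.43), so the separation was seen with 1 of the gene's 2 tested probes. Another probe, OEV5_31021 in intron 15, was well above background on no array.

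NCOA3, the p160 coactivator often amplified in breast and ovarian cancers, varied most. Its only probe, A_23_P120442, lies in the 3′ UTR (exon 23 of 23, chr20:47654886-47654945, plus strand). It read 11.11, 10.69 and 10.75 under the 1α,25(OH)2D3 label and 10.97, 10.23 and 9.95 under the vehicle label. The range over the 6 arrays was 1.16, while the median range was 0.48 for the 17 member probes and 0.69 for all tested probes, 24.9% of which exceed 1. The 1α,25(OH)2D3 label was higher by 0.47, a 1.38-fold difference (SE 0.276, 95% interval -0.17 to 1.11, limma, adjusted p = 0.703), and this interval was the only one of the 17 to reach past a 2-fold change. Vehicle replicate 1 lay among the 1α,25(OH)2D3 arrays. Without it the difference was 0.76 (limma, unadjusted p = 0.00837, adjusted p = 0.417), and without vehicle replicate 3 it was 0.25. The adjusted p ranged from 0.417 to 0.999 over the alternatives.

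**Figure D2:**
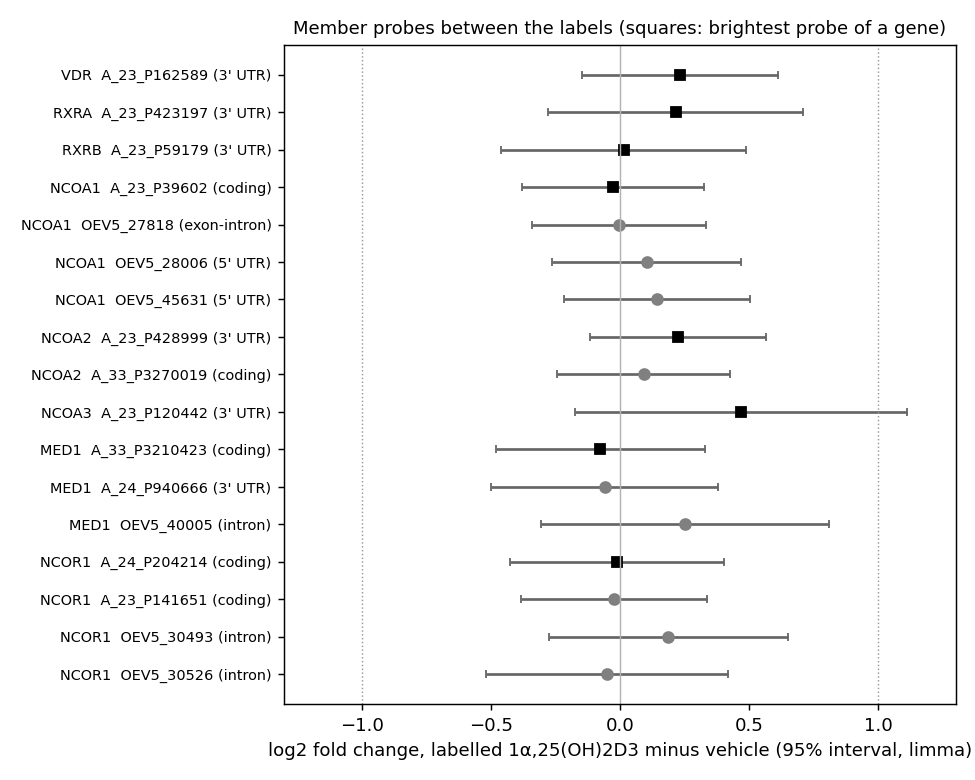
Log2 difference between the labels (x axis, 1α,25(OH)2D3 minus vehicle) with its 95% interval from limma for the 17 tested probes (y axis, with the part of the gene each reads). Squares are the brightest probe of a gene, circles its other probes, and dotted lines a 2-fold change. Every interval contains 0, and that of NCOA3 alone crosses a dotted line.

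MED1, the Mediator subunit that binds nuclear receptors, was read by 3 tested probes. Its coding probe A_33_P3210423 read 10.92, 10.90 and 10.93 under the 1α,25(OH)2D3 label and 11.02, 11.23 and 10.72 under the vehicle label. On this probe the SD was 0.019 within the 1α,25(OH)2D3 label and 0.26 within the vehicle label, while within the 1α,25(OH)2D3 label it was 0.19 on the 3′ UTR probe and 0.29 on the intron 10 probe. The 1α,25(OH)2D3 values of the coding probe lie inside the vehicle range. The difference was -0.08 (SE 0.174, 95% interval -0.48 to 0.33, limma, adjusted p = 0.915). The 3′ UTR probe A_24_P940666 (exon 17) read 9.37, 9.39 and 9.05 against 9.41, 9.53 and 9.05, a difference of -0.06. On both probes vehicle replicate 2 was the highest array and vehicle replicate 3 the lowest. The probe in intron 10, OEV5_40005, was well above background throughout but moved otherwise. It was highest on 1α,25(OH)2D3 replicate 2 (6.73), lowest on vehicle replicate 1 (5.77), and differed between labels by 0.25 (95% interval -0.31 to 0.81). Its sequence ends in a stretch rich in short CA and TG repeats, and whether it reads other RNA was not tested.

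NCOR1, the corepressor, was read by 6 probes, 4 of which were tested. The coding probe in exon 5, A_24_P204214, read 9.95, 9.92 and 10.08 under the 1α,25(OH)2D3 label and 10.29, 9.86 and 9.83 under the vehicle label. The difference was -0.01 (SE 0.178, 95% interval -0.42 to 0.40, limma, adjusted p = 0.990). The coding probe in exon 44, A_23_P141651, read 9.48, 9.45 and 9.65 against 9.71, 9.44 and 9.50, a difference of -0.02. One intron 40 probe, OEV5_30526, read 9.04, 9.02 and 9.36 under the 1α,25(OH)2D3 label and 9.47, 8.88 and 9.24 under the vehicle label, a difference of -0.05. On these 3 probes, which lie along most of the transcript, vehicle replicate 1 was the highest array and 1α,25(OH)2D3 replicate 3 the next. The other intron 40 probe, OEV5_30493, was highest on 1α,25(OH)2D3 replicate 1 (6.48) and lowest on vehicle replicate 3 (5.84), with a difference of 0.19. Probes in introns 42 and 1, OEV5_30647 and OEV5_33889, were well above background on no array.

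Over the 17 tested probes, 10 differences were above 0 and 7 below, with a median of 0.09, while over all tested probes the median was -0.00371 and 49.4% were above 0. The lowest array carried the vehicle label for the brightest probe of all 8 genes and for 16 of the 17 tested probes, beside 51.2% of all tested probes. The highest array carried it for 4 of the 8 genes and 8 of the 17 probes, beside 50.8% of all tested probes. Vehicle replicate 3 was the lowest array for the brightest probe of 7 of the 8 genes, all but NCOA2, and for 9 of the 17 tested probes, and it was the highest for none. Over all tested probes it was the lowest for 17.8%. The median deviation of the 8 brightest probes from their own mean was -0.25 on that array. Over the 17 tested member probes it was -0.13, and over all tested probes 0.00292. No other array had a median deviation beyond 0.0909 in either direction for the 8, or beyond 0.0945 for the 17. These values were noticed after the data were seen and are a description.

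**Figure D3:**
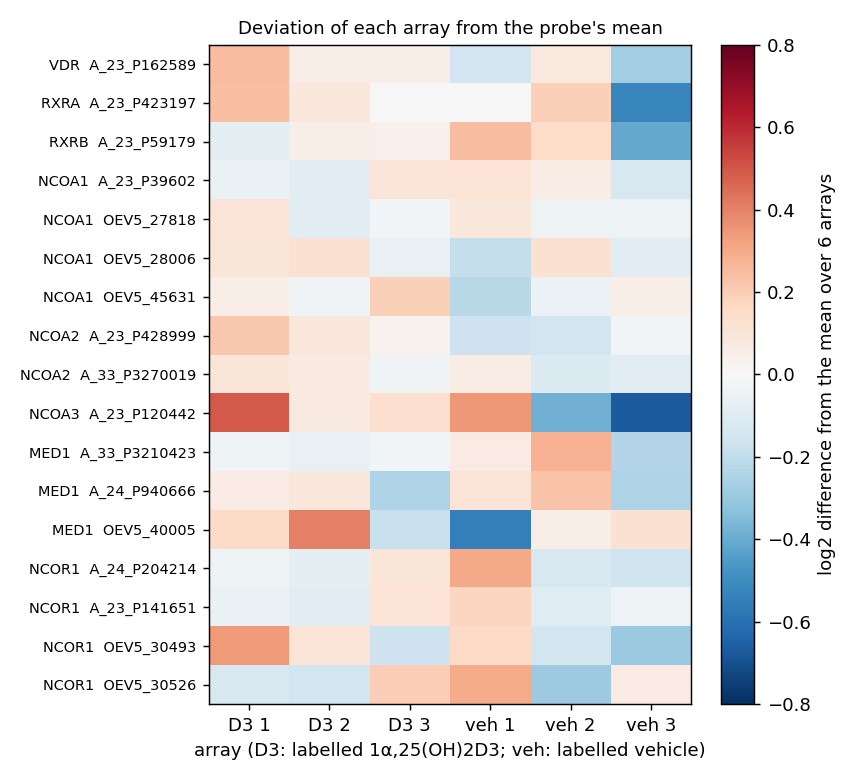
Deviation of each array (x axis) from a probe's mean over the 6 arrays, in log2 units by colour, for the 17 tested probes (y axis). The vehicle replicate 3 column is lowest for 9 of the 17 probes, with NCOA3 and RXRA the deepest, and the rows of 1 gene do not all show the same pattern.

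By a fixed rule, the probes most like VDR across the 6 arrays were sought among 42281 probes with a gene name and well above background on every array. The closest by root mean square difference of centred log2 values were those of FAM106A (0.0386), PCMTD1-DT (0.0394), DGKG (0.0416), A1BG-AS1 (0.0427) and VLDLR (0.0429). The spread of VDR itself about its mean was 0.169 on the same measure, so all 5 followed its small differences closely. With 6 arrays and this many probes such matches are a description only.

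Beyond the members, a list of 53 other genes of the machinery was read, each by its brightest probe. All 53 were tested, 0 were called by fold and p, and none had an adjusted p under 0.05. The differences were above 0 for 30 and below 0 for 23, with a median of 0.02. At an unadjusted p under 0.05, 4 of the 53 were found, a share close to the 6.77% of all tested probes. In 15 of the 53 the labels did not overlap, a larger share than the 12.2% of all tested probes, and this was not tested. The intervals lay within a 2-fold change for 47. On the arrays split by A_23_P28815, 1 of the 53 did not overlap, against 6.17%. It was NRIP1, a corepressor of ligand-bound receptors, named after its values were seen. NRIP1 read 8.73 to 9.06 where A_23_P28815 was high and 8.39 to 8.72 where it was low, so the ranges just fail to overlap. The gene has 2 tested probes, of which only the brightest is given, and this split was not checked under other scaling.

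The 4 with an unadjusted p under 0.05 came from different roles. HDAC3, the deacetylase of the NCOR1 complex, read 9.77, 9.71 and 9.53 under the 1α,25(OH)2D3 label and 9.30, 9.13 and 9.37 under the vehicle label, a difference of 0.40. MED13, of the Mediator kinase module, read 8.05, 7.92 and 7.82 against 7.55, 7.55 and 7.59, a difference of 0.37. In both genes every 1α,25(OH)2D3 value lay above every vehicle value. BRD9, a bromodomain subunit of a SWI/SNF remodeler, read 9.14, 9.40 and 9.45 against 9.56, 9.89 and 9.81, a difference of -0.42, again without overlap. PRMT1, an arginine methyltransferase that acts as a coactivator, read 10.21, 10.57 and 10.90 against 10.77, 11.30 and 11.30, a difference of -0.56 with overlap. The adjusted p was 0.701 for each (limma), so none passed. With slide as a block, 1α,25(OH)2D3 replicate 3 alone is set against the vehicle arrays. The differences were then 0.26 for HDAC3, 0.26 for MED13, -0.31 for BRD9 and -0.22 for PRMT1, each nearer 0. HDAC3 has 5 tested probes, MED13 4, BRD9 2 and PRMT1 5, and only the brightest of each is given. The position of these 4 probes within their genes was not analysed here.

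By role, the median difference was 0.22 for 11 coactivators, 0.00638 for 9 corepressors, -0.03 for 16 Mediator subunits, 0.07 for 11 chromatin remodelling genes and 0.08 for 6 other receptors. The corepressor median is the value of the probe of HR, named after its values were seen, which read 18.2 to 18.3 on every array, and whether that probe measures HR was not tested. RXRG, the RXR of muscle and brain, had the largest difference of the list, -0.87 (95% interval -1.98 to 0.24, adjusted p = 0.701). Its probe was well above background on 4 of the 6 arrays and so passed the filter through 1 label only. It read 3.48, 3.93 and 5.47 under the 1α,25(OH)2D3 label and 4.83, 5.21 and 5.46 under the vehicle label. The difference thus rests in part on values not well above background. With detection required on all 6 arrays the list held 52 tested genes, without RXRG.

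**Figure D4:**
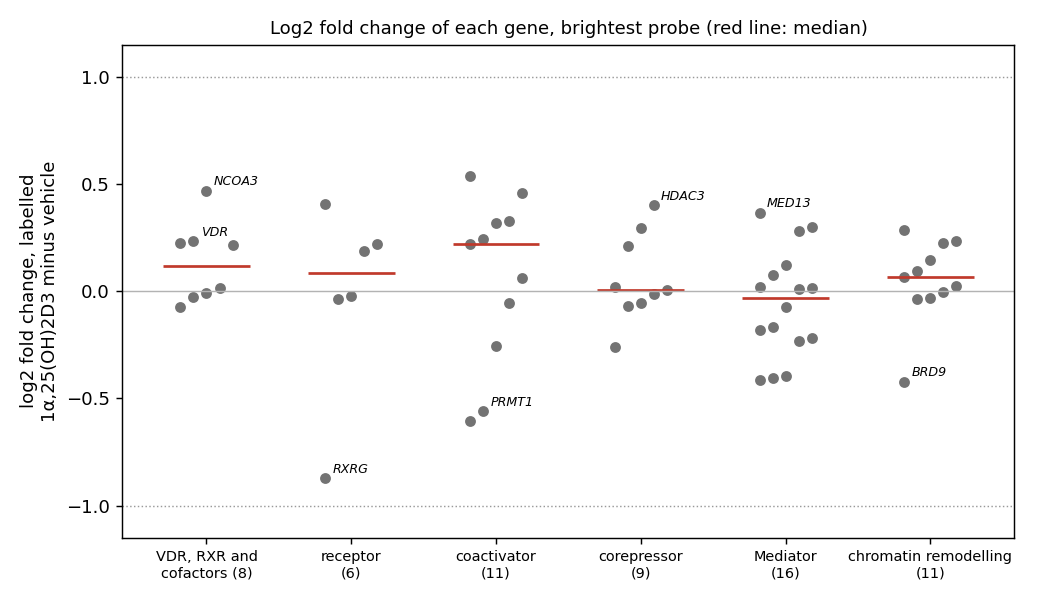
Log2 difference between the labels (y axis, 1α,25(OH)2D3 minus vehicle) of the brightest probe of each gene, for VDR, RXR and cofactors (8 genes) and the 53 other genes by role (x axis), with the median of each group in red and a 2-fold change dotted. No gene crosses a dotted line, and RXRG, whose probe was well above background on 4 of the 6 arrays, comes nearest.

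Over the whole series, the share of probes well above background was 49.1% on the lowest array and 57.5% on the highest, and none of the 175812 spots that are not controls was saturated. All 7 markers of epithelial and ovarian carcinoma cells with a probe were well above background on all 6 arrays, KRT8 at 14.2 to 14.7. So were 6 of 8 markers of leukocytes, endothelium and fibroblasts, among them CD14 at 8.83 to 9.31 and PTPRC at 6.49 to 7.14, while DCN was on 0 arrays and LUM on 1. The part of these in the member values was not tested. 1α,25(OH)2D3 replicates 1 and 2 share 1 slide, and 1α,25(OH)2D3 replicate 3 shares another with the vehicle arrays. With slide as a block, which here gives the same values as the shared slide alone, 1α,25(OH)2D3 replicate 3 alone is set against the vehicle arrays. That array is one of those whose A_23_P28815 value went against its label. The differences were then 0.17 for VDR, 0.11 for RXRA, 0.14 for NCOA2 and 0.37 for NCOA3. The coding probes A_23_P39602 of NCOA1 and A_24_P204214 of NCOR1 turned to 0.0890 and 0.0897, and A_23_P141651 of NCOR1 to 0.0989. The intron probes OEV5_40005 of MED1 and OEV5_30493 of NCOR1 turned to -0.05 and -0.07, OEV5_30526 of NCOR1 to 0.17, and the 5′ UTR probe OEV5_28006 of NCOA1 to -0.00859. Without a change of sign, the 3′ UTR probe A_24_P940666 of MED1 went to -0.27, OEV5_45631 of NCOA1 to 0.26 and the coding probe A_33_P3270019 of NCOA2 to 0.0161.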

How the data were processed

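Total RNA of 6 SKOV3 samples was copied to cDNA and then to cRNA labelled with Cy3, which was hybridized to 1-color Agilent arrays. Per the file headers, the authors extracted spot intensity with Agilent Feature Extraction 10.7.1.1, on a linear scale with background corrected within each array. A table of log2 values was deposited too. Its columns are quantile-normalized (median 4.78 each) and rank with the scanner signals at 0.9998 or more. The labels name the mirVana kit for RNA, the methods TRIzol. The gene name column repeated the probe ID (0 spots with a gene name), so probes were matched without mismatch to GENCODE release 44 transcripts (72.1% matched) and GRCh38. 17 probes had no scanner value on some array. Those of them that passed the filter dropped out of the alternatives built on the scanner signals (63332 probes tested). The fit of the deposited values lost none.

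Groups followed the labels. The deposited log2 values were fitted with limma 3.58.1 in R 4.3.3 (lmFit, eBayes, no covariate), on the 63337 probes that the scanner marked as well above background in every replicate of at least 1 label, with Benjamini-Hochberg adjustment over all of them. An exact permutation test of 3 against 3 arrays cannot go below 0.1. The fit was tested on simulated data with independent noise and changes that followed the labels. That does not test the labels or the slides of these arrays. The named genes were the 8 members, the listed genes with an unadjusted p under 0.05 (at most 6) and the 5 probes nearest VDR, and the brightest probe stood for a gene. The members and lists were chosen with earlier results of these data known. No levels were compared between probes, whose affinities differ. The number of arrays limits the precision. Alternatives covered scaling, background correction, filters, blocks, an unpaired t-test, which the study names for its experimental data and not for the arrays, probe choice and leaving out each array. Protein features of the members are not analysed here.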

Additional observations from a re-analysis of the deposited data

How the results depend on the processing

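No member was called under any alternative. Of 128 values of the 8 genes over the alternatives, 0 had an adjusted p under 0.05, 2 an unadjusted p under 0.05, and 17 changed sign. VDR, RXRA, NCOA2 and NCOA3 never did. NCOA1 turned to 0.0890 with slide as a block and within slide 2, and to 0.0545 as the mean over its probes. NCOR1 turned to 0.0897, 0.0897 and 0.0262 under the same settings, and MED1 to 0.0118 with normexp (offset 50) and 0.0394 as the mean over its probes. With each array left out in turn the ranges were -0.19 to 0.14 for RXRB, -0.0963 to 0.0212 for NCOA1, -0.21 to 0.0447 for MED1 and -0.0926 to 0.14 for NCOR1. The VDR split beside A_23_P28815, 1 probe, fell to 0 with 75th percentile scaling and to 0 with normexp.

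Of all probes, 472 (308 higher, 164 lower) were called. The count was 33 (14 and 19) with normexp, 1612 (872 and 740) without a background filter, 157 (94 and 63) with detection on all 6 arrays, 808 (402 and 406) with slide as a block, 797 (386 and 411) within slide 2, and 139 with an unpaired t-test in place of limma. Leaving out 1 array gave 296 (without 1α,25(OH)2D3 replicate 1) to 1181 (without 1α,25(OH)2D3 replicate 3, 497 and 684), with 1109 without vehicle replicate 1, where 4 probes, none a member, passed the adjusted threshold. In the list of 53 genes, NCOA7 went from 0.54 to 1.08 with slide as a block and within slide 2. Leaving out 1 array gave 0 to 2 called, the 2 (RXRG, -1.46, and KMT2D, -1.004) without 1α,25(OH)2D3 replicate 3. The RXRG probe was well above background on 4 of the 6 arrays. The causes were not tested.

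The labels share replicate numbers, but deviations of same-numbered arrays correlated at 0.12, 0.092 and -0.025, so the numbers were not taken to pair the arrays. With the replicate block 582 probes were called, 0 of them a member.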
